A study of Mus musculus with 9 samples.

Results

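The cholesterol and fatty acid synthesis module was followed in sorted Lgr5-GFP+ cells of the mouse small intestine after deletion of Kansl1, the gene for a scaffold of the NSL histone acetyltransferase complex. Its 32 genes were taken by name from the 57180 identifiers of a table of raw counts, with earlier results of these data known. They were the enzymes of the mevalonate and sterol pathway (19 genes, the sterol branch), 6 enzymes of fatty acid synthesis and desaturation, 5 genes that control the SREBP transcription factors, the sterol carrier gene Stard4 and the oxysterol hydroxylase gene Cyp39a1. Each symbol matched 1 identifier in the GENCODE M21 annotation, and all 32 passed the filter on low counts, among 13405 genes tested.

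The 9 libraries formed 3 groups of 3. Mice with the Lgr5-EGFP-CreERT2 allele and loxP-flanked Kansl1 (Kansl1 f/f) were given tamoxifen each day for 3 days (KO day 3) or 4 days (KO day 4), and control mice, labelled KANSL1-WT, were given corn oil. GFP and the inducible Cre are both driven from Lgr5, which marks the stem cells at the crypt base, so the sort takes cells in which the allele is active. Tamoxifen and loss of KANSL1 came together in both KO groups and cannot be told apart, nor can a further day of tamoxifen and a further day after recombination. Ages are not stated in the labels, and they do not say that the 3 libraries of a group came from separate animals, so the p-values measure the spread between these libraries, which may be technical.

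As background, cells build cholesterol from acetyl-CoA through mevalonate, the isoprenoid diphosphates, squalene and lanosterol. The genes of this route are classic targets of SREBP-2 (Srebf2), while fatty acid synthesis is driven mainly by SREBP-1c (Srebf1). Both factors are made as membrane precursors that SCAP escorts from the endoplasmic reticulum to the Golgi for cleavage when sterols are low, and the INSIG proteins hold SCAP back when sterols are high. In crypts, phospholipid and cholesterol synthesis has been linked to stem cell proliferation.

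Total counts per library were 12164479 to 17913787 among controls, 8400458 to 21484679 for KO day 3 and 11174583 to 16943055 for KO day 4. Transcripts of the mitochondrial genome took 20.0% ± 5.08 of a control library, 27.3% ± 7.32 of a KO day 3 library and 69.4% ± 2.63 of a KO day 4 library (SD, n = 3 each). That left 3115374 to 5614186 nuclear counts in the KO day 4 libraries, fewer than the 9996919 to 13980785 of the controls. Kansl1 itself was at 4.46, 11.4 and 9.83 CPM (the usual depth-normalised counts, on library sizes scaled by the TMM method) in control replicates 1, 2 and 3, at 2.81, 2.99 and 2.55 CPM at KO day 3 and at 2.93, 5.09 and 8.96 CPM at KO day 4. The KO day 4 values overlapped the controls, and the log2 fold change was -1.62 at KO day 3 (edgeR adjusted p = 0.12) and -0.63 at KO day 4 (edgeR adjusted p = 0.34). Which exons are flanked by loxP is not given in the labels, and a count over the whole gene need not show the loss of a few exons, so KO stands here for the label. KO day 3 replicate 1 (correlation 0.910 and 0.914 with its group) and KO day 4 replicate 3 (0.857 and 0.863) stood apart from the other libraries, where controls reached 0.969 to 0.973.

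Markers of several cell types moved with the groups, as sums over each list in CPM of nuclear counts. The 7 stem cell markers, all detected, were at 18699 to 22575 among controls, 12591 to 18190 for KO day 3 and 2723 to 7505 for KO day 4. The labelled cell type was thus present, with lower marker sums at each step. Most of this sum is Olfm4, and single genes on the TMM scale need not follow it. At KO day 3 the log2 fold changes of Olfm4, Lgr5 and Ascl2 were -0.21, -0.18 and -0.04 (edgeR adjusted p = 0.82, 0.81 and 0.97). At KO day 4 they were -1.45, -0.71 and -1.52 (edgeR adjusted p = 0.010, 0.092 and 0.0039), so Lgr5 was not called. In the same order, the 7 Paneth cell markers were at 15754 to 37173, 24498 to 39554 and 91916 to 114695. The 6 goblet markers were at 1652 to 2022, 1706 to 2366 and 2968 to 4938, and the 6 tuft markers at 6.72 to 8.66, 12.3 to 22.3 and 134 to 349. The 9 mast cell markers, 4 of them at 0 in every control, were at 0.10 to 0.572, 21.9 to 192 and 448 to 1263. The 9 markers of other immune cells, 6 at 0 in every control, were at 2.40 to 5.12, 6.19 to 26.6 and 33.2 to 85.7, with the T cell genes Cd3e and Cd3g still at 0 at KO day 4. The 7 enteroendocrine markers were at 36.8 to 107, 80.5 to 146 and 269 to 425, and the 6 stromal markers, of which 5 were detected, at 2.00 to 5.80, 6.50 to 14.0 and 27.7 to 48.5. The 8 enterocyte markers went down at KO day 4, at 464 to 521, 407 to 627 and 232 to 266, and the 4 red blood cell markers, near 0 throughout, were at 0 in every KO day 4 library. In bulk libraries, fewer cells of a type and less RNA per cell cannot be told apart, and the part of these shifts in the results on the module was not tested.

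At KO day 4, 10 of the 32 genes rose and 3 fell against control (edgeR quasi-likelihood test, Benjamini-Hochberg adjusted p under 0.05 over all genes tested), and 19 were not called. Among all genes tested 11.1% were called higher and 11.5% lower. The genes that rose were Hmgcs1, Mvd, Fdps, Fdft1, Sqle, Lss, Cyp51, Msmo1 and Hsd17b7, all of the sterol branch, and Stard4, and those that fell were Ebp, Srebf1 and Cyp39a1. In 14 of the 32 genes all 3 KO day 4 libraries lay above all 3 controls, and in 4 all lay below them; among all genes tested 20.6% lay wholly above the controls and 26.4% wholly below. The median log2 fold change was 0.74 over the module and -0.06 over all genes tested. These directions are relative to TMM scaling, since without it, on library size alone, the median over all genes tested was itself at -1.95, the sterol branch at -0.76 and the fatty acid branch at -1.29. Without KO day 3 replicate 1 and KO day 4 replicate 3, 9 genes were called higher and 3 lower, with 8 and 3 of them shared with the full set, where 14.1% and 16% of all genes tested were called.

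**Figure D1:**
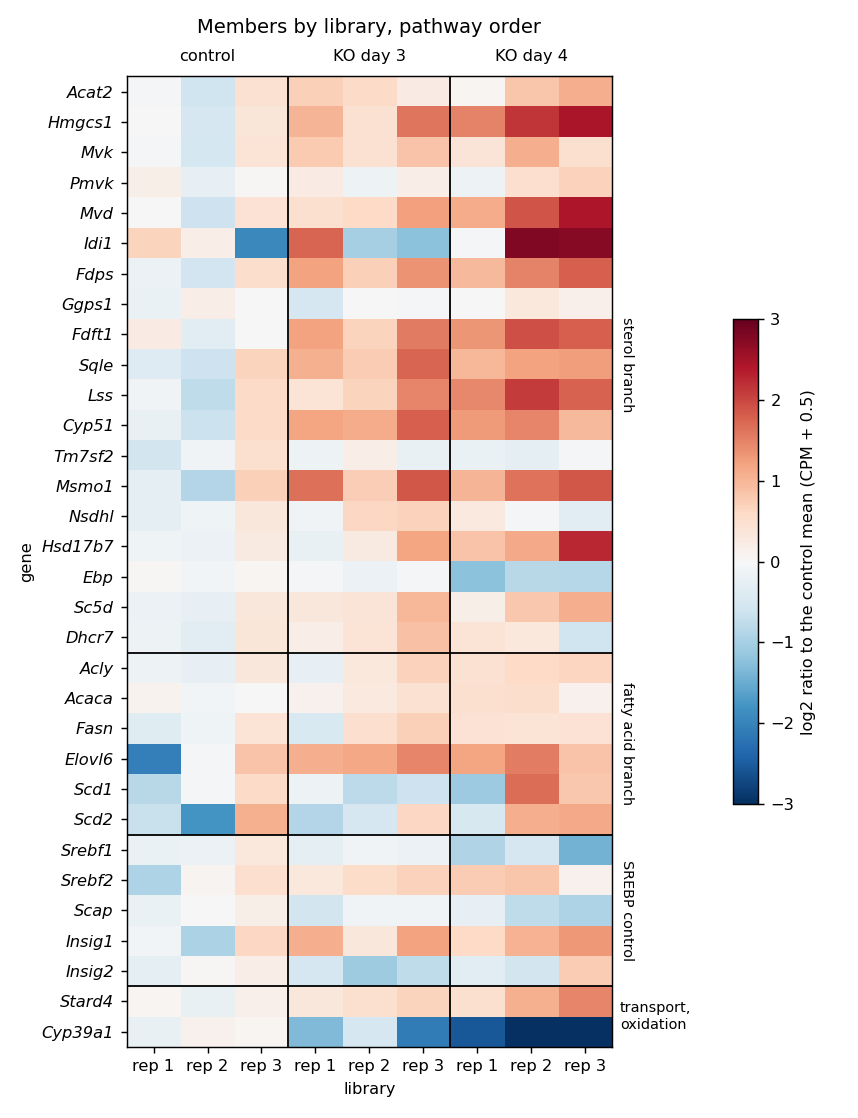
The map gives, for each of the 32 genes (rows, in pathway order) and each of the 9 libraries (columns), the log2 ratio of its CPM plus 0.5 to the control mean, red above and blue below and capped at 3 in either direction. Hmgcs1, Mvd, Fdft1 and Lss are red in all 3 KO day 4 libraries, Ebp and Cyp39a1 are blue in all 3, and Idi1 differs widely between libraries of the same group; on library size alone, without TMM scaling, most of the red genes at KO day 4 turn below the controls with the rest of the transcriptome.

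The proximal promoters show which letters these genes share. RefSeq start sites (GRCm38.p6) with 250 bases before and 50 after matched 25 of the 32 genes; promoters of Fdps, Fdft1, Sqle, Scd1, Scd2, Stard4 and Cyp39a1 were not analysed here. The box CCAAT, bound by NF-Y, a known partner of the SREBPs, was found on either strand in 15 of the 16 sterol branch genes with a window (93.8%), in 2 of the 4 fatty acid genes and in 4 of the 5 control genes, against 41.1% of the 27025 genes with such windows. The sterol regulatory element searched, TCACNCCAC on either strand, was found in 1 of the 25, Hmgcs1, against 1.44% of all. The E-box CACGTG was found in 5 of the 25, against 8.09% of all. A match is a run of letters, not a measured binding site. The 150 bases before the start of 4 genes follow, 5′ to 3′ on the gene's strand, chosen because Hmgcs1 and Mvd rose most among the genes called at KO day 4, Ebp fell, and Fasn stands for the fatty acid branch. Capitals mark TCACNCCAC and CCAAT or its reverse complement ATTGG, which overlap each other in the last marked run of Fasn.
Hmgcs1, chr13:119690201-119690350, plus strand: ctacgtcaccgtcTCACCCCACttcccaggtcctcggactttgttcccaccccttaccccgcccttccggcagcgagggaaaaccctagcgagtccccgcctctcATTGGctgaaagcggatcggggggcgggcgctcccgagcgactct
Mvd, chr8:122443423-122443572, minus strand: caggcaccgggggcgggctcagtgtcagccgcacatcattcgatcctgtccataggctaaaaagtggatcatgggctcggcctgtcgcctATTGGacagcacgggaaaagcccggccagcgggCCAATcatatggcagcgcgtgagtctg
Ebp, chrX:8193513-8193662, minus strand: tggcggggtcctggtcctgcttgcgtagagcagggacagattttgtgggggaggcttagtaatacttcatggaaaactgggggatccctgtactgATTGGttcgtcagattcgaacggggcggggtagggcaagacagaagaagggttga
Fasn, chr11:120824548-120824697, minus strand: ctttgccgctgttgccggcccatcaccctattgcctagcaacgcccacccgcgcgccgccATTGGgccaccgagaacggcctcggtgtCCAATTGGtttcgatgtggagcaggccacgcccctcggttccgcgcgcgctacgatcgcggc
Each of the 4 holds at least 1 CCAAT box, so Ebp, which fell, and Fasn, which was not called, share it with Hmgcs1 and Mvd, which rose.

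The mevalonate and isoprenoid steps held 8 genes, of which 3 rose at KO day 4 and none fell. Their median log2 fold change was 1.10. Hmgcs1, the cytosolic HMG-CoA synthase, was at 29.2, 20.3 and 37.1 CPM in control replicates 1, 2 and 3, at 59.2, 40.0 and 88.8 CPM at KO day 3 and at 81.7, 129 and 159 CPM at KO day 4. Hmgcs1 is ENSMUSG00000093930, on chromosome 13 from 119690379 to 119708260. All 6 KO libraries were above the highest control, and KO day 4 lay above KO day 3 except for KO day 4 replicate 1, which was just under KO day 3 replicate 3. The log2 fold change at KO day 4 was 2.09 (SE 0.34, edgeR adjusted p = 0.0019), the largest of the 10 rises. Mvd, which makes isopentenyl diphosphate, was at 16, 10.3 and 21.6 CPM in controls, 22.3, 24.2 and 38.1 CPM at KO day 3 and 35.3, 59.9 and 87.3 CPM at KO day 4. Mvd is ENSMUSG00000006517, on chromosome 8 from 122433601 to 122443422. Its 3 groups stepped upward, with only KO day 4 replicate 1 inside the range of KO day 3, and its log2 fold change at KO day 4 was 1.93 (SE 0.36, edgeR adjusted p = 0.0043).

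Fdps, the farnesyl diphosphate synthase, was at 28, 21.1 and 45.7 CPM in controls, 73.3, 52.1 and 81.6 CPM at KO day 3 and 62.9, 89.7 and 112 CPM at KO day 4, with both KO groups wholly above the controls. Fdps is ENSMUSG00000059743, on chromosome 3 from 89093588 to 89101959. Its log2 fold change at KO day 4 was 1.48 (SE 0.30, edgeR adjusted p = 0.0064). The annotation gives Fdps 1124 bases of exon, 26.7% of its length, in common with Gm43738 on the same strand, so its counts depend on how shared reads were assigned. Idi1, the isopentenyl diphosphate isomerase, varied widely within groups, at 60.1, 43.5 and 9.43 CPM in controls, 127, 18.6 and 15.7 CPM at KO day 3 and 36.3, 261 and 252 CPM at KO day 4. A pair of KO day 4 libraries was far above the rest while KO day 4 replicate 1 lay inside the control range, and the log2 fold change of 2.28 (SE 0.92) was not called (edgeR adjusted p = 0.098). Without KO day 3 replicate 1, which adds to the shared estimate of spread, the adjusted p was 0.041.

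The other 4 genes of these steps were not called by edgeR at KO day 4. Acat2, the cytosolic thiolase that makes acetoacetyl-CoA, was at 31.2, 21.1 and 44.6 CPM in controls and 33.6, 58.4 and 69 CPM at KO day 4, with 1 day 4 library, replicate 1, inside the control range. Without that library it was called higher (edgeR adjusted p = 0.038). Mvk, the mevalonate kinase, was at 14.9, 10.5 and 20.4 CPM in controls, 26.8, 21.1 and 28.2 CPM at KO day 3 and 20.3, 33.2 and 21.5 CPM at KO day 4, higher without overlap at KO day 3 and overlapping by 1 library at KO day 4, where limma with quality weights called it higher (adjusted p = 0.042). Pmvk, the phosphomevalonate kinase, had a log2 fold change of 0.39 (SE 0.25) at KO day 4. Ggps1, which makes geranylgeranyl diphosphate for protein prenylation and so leads away from sterols, had one of 0.17 (SE 0.25), the smallest of the 8.

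All 3 genes from squalene to lanosterol rose at KO day 4, by a median of 1.72 on the log2 scale. Fdft1, the squalene synthase and first enzyme committed to sterols, was at 39.5, 26.8 and 34 CPM in controls, 78, 53.2 and 99.8 CPM at KO day 3 and 85.1, 129 and 116 CPM at KO day 4. Fdft1 is ENSMUSG00000021273, on chromosome 14 from 63145150 to 63179578. The groups did not overlap at either time, and the log2 fold change at KO day 4 was 1.72 (SE 0.25, edgeR adjusted p = 0.0013). Its exons share 774 bases (18.3%) with Ctsb on the other strand, whose own level went the other way, from a mean of 275 CPM in controls to 171 CPM at KO day 4 (log2 fold change -0.68, edgeR adjusted p = 0.0080). Lss, the lanosterol synthase that closes the ring system, was at 12.4, 7.60 and 19.9 CPM in controls, 18, 21.3 and 37.9 CPM at KO day 3 and 37, 58.2 and 46.3 CPM at KO day 4. Lss is ENSMUSG00000033105, on chromosome 10 from 76531588 to 76557138. One day 3 library fell inside the control range and no day 4 library did (log2 fold change 1.83, SE 0.37, edgeR adjusted p = 0.0063). Sqle, the squalene epoxidase and a rate-setting oxygen-dependent step, was at 20.1, 17 and 41.8 CPM in controls, 55.5, 44.6 and 89.3 CPM at KO day 3 and 53, 61.1 and 63.8 CPM at KO day 4. Sqle is ENSMUSG00000022351, on chromosome 15 from 59315077 to 59331192. Both KO groups lay wholly above the controls, day 4 no higher than day 3 (log2 fold change 1.17 at KO day 4, SE 0.34, edgeR adjusted p = 0.030). The call on Sqle was lost without control replicate 1 (adjusted p = 0.11), control replicate 2 (0.11), KO day 4 replicate 2 (0.075) or KO day 4 replicate 3 (0.070). It was also lost without the libraries that stood apart (0.057).

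From lanosterol to cholesterol the genes did not move as one: of 8, 3 rose, 1 fell and 4 were not called at KO day 4. The median of their log2 fold changes was 0.43. Cyp51, the lanosterol demethylase, was at 37.1, 27.4 and 64.8 CPM in controls, 98.7, 93.8 and 151 CPM at KO day 3 and 106, 119 and 84.6 CPM at KO day 4. Cyp51 is ENSMUSG00000001467, on chromosome 5 from 4081145 to 4104746. It stood above the controls in all 6 KO libraries and its highest value was at KO day 3 (log2 fold change 1.26 at KO day 4, SE 0.30, edgeR adjusted p = 0.013). Without control replicate 1 or control replicate 2 the adjusted p was 0.055 or 0.051. Msmo1, the C4 methyl oxidase that acts after it, was at 14.9, 9.75 and 30.5 CPM in controls, 59, 31.1 and 68 CPM at KO day 3 and 38, 57.9 and 68.3 CPM at KO day 4. Msmo1 is ENSMUSG00000031604, on chromosome 8 from 64718139 to 64733792. Again all 6 KO libraries exceeded the controls (log2 fold change 1.57 at KO day 4, SE 0.41, edgeR adjusted p = 0.020). The call was lost without control replicate 1, control replicate 2, KO day 4 replicate 2 or KO day 4 replicate 3, where the adjusted p was 0.076, 0.068, 0.056 and 0.061. It was also lost without both libraries that stood apart (0.052). Hsd17b7, a sterol ketoreductase of the same demethylation complex, was low in controls, at 4.81, 4.69 and 6.47 CPM, against 4.52, 6.54 and 12.7 CPM at KO day 3 and 10.1, 12.4 and 27.5 CPM at KO day 4. Hsd17b7 is ENSMUSG00000026675, on chromosome 1 from 169949535 to 169969241. KO day 4 replicate 3 held the highest value (log2 fold change 1.63, SE 0.45, edgeR adjusted p = 0.025). Without it the adjusted p was 0.088. Leaving out control replicate 1, 2 or 3 gave 0.082, 0.087 and 0.053.

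Ebp was the one sterol branch gene that fell. It encodes the sterol isomerase that shifts the double bond of the sterol ring, a protein also known to bind tamoxifen. Ebp is ENSMUSG00000031168, on chromosome X from 8185329 to 8193512. It was at 49.2, 45.2 and 49.7 CPM in controls, 46.7, 42.3 and 46.7 CPM at KO day 3 and 20.3, 26.6 and 26.2 CPM at KO day 4. Its control and KO day 3 libraries lay within a narrow band, and all 3 KO day 4 libraries lay below both groups. The log2 fold change was -0.98 (SE 0.17, edgeR adjusted p = 0.0024) against control and -0.90 (SE 0.17, edgeR adjusted p = 0.0083) against KO day 3, and both calls held in every one of the 19 alternative settings. Its direction was the same on library size alone, where all of the genes that rose but Hmgcs1 turned lower. The median over all genes tested was -1.95 on that scale, so that setting is no separate check on a fall.

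The other 4 genes between lanosterol and cholesterol were not called by edgeR at KO day 4. Sc5d, the C5 desaturase, was at 13.8, 13.1 and 19.9 CPM in controls, 19.9, 20.4 and 31.5 CPM at KO day 3 and 17.6, 27.7 and 34 CPM at KO day 4, with 1 library of each KO group inside the control range. At KO day 4 it was called higher by DESeq2 (adjusted p = 0.045) and by edgeR without KO day 4 replicate 1 (0.038). Dhcr7, which reduces 7-dehydrocholesterol to cholesterol, was at 18.7, 16.6 and 26.8 CPM in controls, 23.7, 27.8 and 38.7 CPM at KO day 3 and 27.5, 25.8 and 13.4 CPM at KO day 4, where KO day 4 replicate 3 was the lowest of all 9 libraries. Nsdhl, the sterol dehydrogenase of the C4 demethylation complex, had a log2 fold change of 0.46 (SE 0.27) at KO day 3 and 0.00 (SE 0.28) at KO day 4. Tm7sf2, a C14 sterol reductase, had one of -0.19 (SE 0.29) at KO day 4, and 532 bases of its exons (12.1%) also belong to Vps51 on the same strand.

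**Figure D2:**
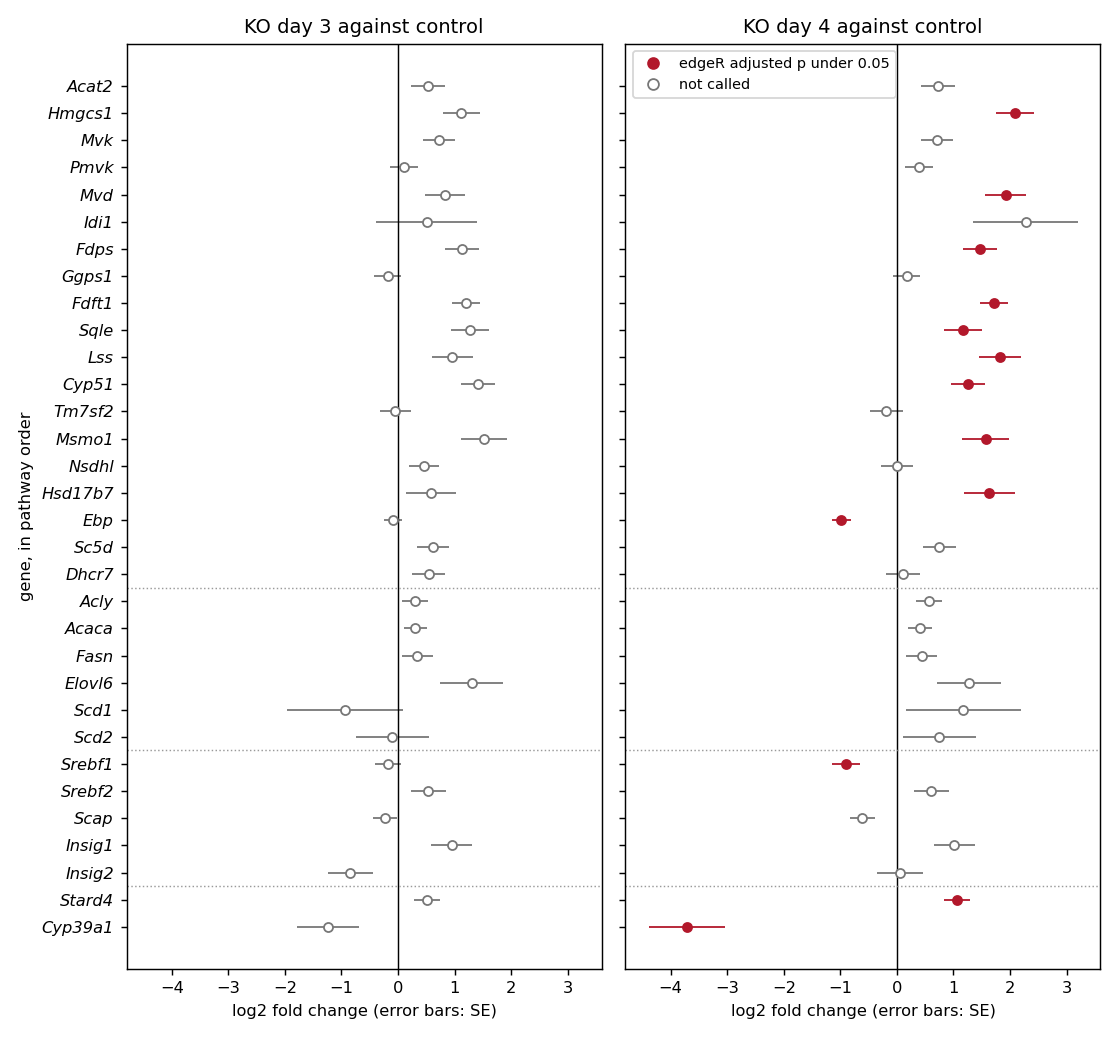
Each point is the log2 fold change of 1 gene against control with its SE (horizontal axis), at KO day 3 (left) and KO day 4 (right), in pathway order from Acat2 to Cyp39a1. Filled points passed the edgeR threshold; none did at KO day 3, and at KO day 4 the filled points are 9 sterol branch genes and Stard4 to the right of 0 and Ebp, Srebf1 and Cyp39a1 to the left, all on the TMM scale (on library size alone the 10 to the right, other than Hmgcs1, turn to the left).

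None of the 6 fatty acid branch genes was called at KO day 4 by DESeq2 or by edgeR on all 9 libraries with group alone. An unadjusted edgeR p under 0.05, in the higher direction, was reached by 2, where 17.2% of all genes tested reached it. Limma with quality weights called 3 higher (Acaca, Acly and Elovl6), where it called 15.3% of all genes tested higher. Acly was called higher by edgeR with only the 2 groups compared (adjusted p = 0.041) or a replicate block (0.049). Acly was called without KO day 3 replicate 1 (0.044), Acaca without the libraries that stood apart (0.040) and Elovl6 without control replicate 3 (0.035). On library size alone Acly, Acaca and Fasn were called lower. In 4 of the 6, Acly, Acaca, Fasn and Elovl6, all 3 KO day 4 libraries were above every control on the TMM scale. Of all genes tested, 20.6% lay wholly above the controls. Fasn, the fatty acid synthase, was at 66.1, 77.9 and 114 CPM in controls, 62.7, 123 and 140.2 CPM at KO day 3 and 117, 115 and 117 CPM at KO day 4. Fasn is ENSMUSG00000025153, on chromosome 11 from 120805846 to 120824547. Its day 4 libraries were nearly equal and only just above the highest control (log2 fold change 0.44, SE 0.28, edgeR adjusted p = 0.28). Acly, which splits citrate into cytosolic acetyl-CoA for both branches, was at 63.6, 59.3 and 89.3 CPM in controls and 96.9, 107 and 110.2 CPM at KO day 4. Its log2 fold change there was 0.57 (SE 0.24, edgeR adjusted p = 0.11). Acaca, the acetyl-CoA carboxylase, was at 14.7, 12.9 and 13.6 CPM in controls and 19.5, 19.9 and 15 CPM at KO day 4, steps that were small beside those of Hmgcs1 or Fdft1.

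Of the fatty acid branch, the elongase and desaturase genes varied most within groups. Elovl6, which extends palmitate, was at 1.48, 7.37 and 14.3 CPM in controls, 16.9, 17.9 and 22.3 CPM at KO day 3 and 18.3, 23.2 and 14.3 CPM at KO day 4. Control replicate 1 was the low one and control replicate 3 was only just under the lowest KO day 4 library, and the log2 fold change of 1.28 (SE 0.57) was not called (edgeR adjusted p = 0.13). Scd2, the desaturase form that dominated here, was at 56.3, 25.5 and 188 CPM in controls, 48.4, 63.4 and 139 CPM at KO day 3 and 64.7, 191 and 198 CPM at KO day 4, and its controls spanned almost the whole range of the KO libraries. Scd1, its better known relative, was barely detected, with 6, 23 and 32 counts in controls, 8, 6 and 10 at KO day 3 and 1, 23 and 8 at KO day 4, so no difference was detectable at this depth. Both lie in one cluster of close relatives on chromosome 19, so some reads may have been assigned to either.

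Set side by side, the sterol branch had a median log2 fold change of 0.62 at KO day 3 and 1.17 at KO day 4, and the fatty acid branch one of 0.30 and 0.66. Summed over genes, the sterol branch was at 449 ± 96.4 CPM in controls, 796 ± 164 CPM at KO day 3 and 1067 ± 294 CPM at KO day 4, and the fatty acid branch at 269 ± 131, 315 ± 116 and 411 ± 82.1 CPM (SD, n = 3 each). Counts of the sterol branch divided by those of the fatty acid branch in the same library, which no scaling between libraries alters, gave 2.20, 1.93 and 1.30 in control replicates 1, 2 and 3, 4.08, 2.00 and 2.17 at KO day 3 and 2.30, 2.65 and 2.75 at KO day 4. The ratio at KO day 4 lay above the controls in all 3 libraries, and at KO day 3 2 of the 3 libraries lay inside the control range. The lowest ratio at KO day 4, 2.30, was close to the highest control, 2.20. Scd2, which varied widely, held 1450, 773 and 4176 of the 5214, 5559 and 9348 fatty acid branch counts of the controls. It held 552 of the 2700 in KO day 4 replicate 1, and the separation of the KO day 4 ratios from the controls depends on counting this gene. Without control replicate 3, the highest control for both branches, the medians at KO day 4 were 1.66 and 1.31, and without control replicate 2 that of the fatty acid branch was 0.41. The difference between the branches was not tested, so 9 calls in 19 genes against 0 in 6 does not show that they responded differently.

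**Figure D3:**
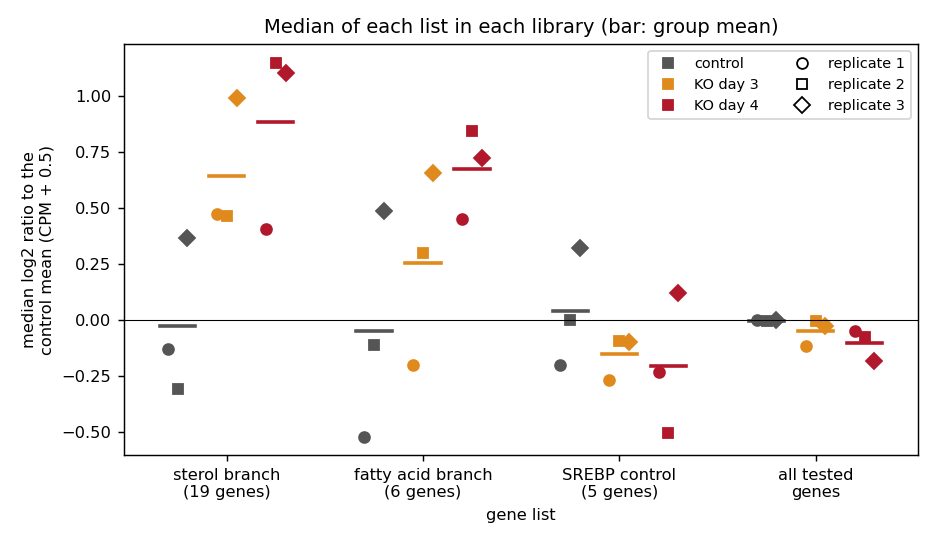
Each point is 1 library, placed at the median over a list of genes of the log2 ratio to the control mean (CPM plus 0.5, vertical axis), with a bar at each group's mean, for the sterol branch, the fatty acid branch, the SREBP control genes and all genes tested. Sterol branch medians are -0.31 to 0.36 in controls and 0.40 to 1.15 at KO day 4, fatty acid medians -0.52 to 0.48 and 0.45 to 0.84, while all genes tested stay near 0 as TMM scaling sets them; on library size alone both branches are below the controls at KO day 4.

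Of the 5 genes that control the SREBPs, 1 fell at KO day 4 and none rose by edgeR, and the median log2 fold change was 0.06. Srebf1, which encodes the SREBP-1 forms, was at 37.9, 38.6 and 54.7 CPM in controls, 36.2, 41 and 38.5 CPM at KO day 3 and 23.2, 30.7 and 16.1 CPM at KO day 4. Srebf1 is ENSMUSG00000020538, on chromosome 11 from 60199089 to 60222581. All 3 KO day 4 libraries lay below every other library (log2 fold change -0.90, SE 0.24, edgeR adjusted p = 0.021). The call was lost without control replicate 3 (adjusted p = 0.091) or KO day 4 replicate 1 (0.051). Gene counts do not separate its SREBP-1a and SREBP-1c transcripts. Srebf2, the sterol regulator, was at 29, 58.5 and 78 CPM in controls, 68.6, 80.8 and 90.0 CPM at KO day 3 and 93.2, 99.1 and 60.0 CPM at KO day 4, with a wide spread in the controls and no call (log2 fold change 0.61, SE 0.31, edgeR adjusted p = 0.18).

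Insig1, an inhibitor of SCAP that is itself a sensitive SREBP target, was at 22.4, 12.1 and 37 CPM in controls, 51.3, 30.5 and 56 CPM at KO day 3 and 36.3, 49.3 and 59.6 CPM at KO day 4. Only control replicate 3 reached the KO range, and the log2 fold change at KO day 4 was 1.02 (SE 0.37, edgeR adjusted p = 0.069; 0.023 without that control). DESeq2 called Insig1 higher (adjusted p = 0.029), as did edgeR with no filter on low counts (0.032). Insig2, the relative that is not induced in the same way, was at 5.09, 6.51 and 7.32 CPM in controls, 4.26, 2.77 and 3.54 CPM at KO day 3 and 4.92, 4.13 and 11 CPM at KO day 4, lower without overlap at KO day 3 and mixed at KO day 4. Scap, the escort protein, was at 42.8, 48.9 and 55.1 CPM in controls and 41.5, 28.6 and 25.5 CPM at KO day 4, below the controls in all 3 libraries but not called by edgeR (log2 fold change -0.61, SE 0.22, adjusted p = 0.065). DESeq2 and limma with quality weights called it lower, as did edgeR with no filter on low counts (adjusted p = 0.040). So did edgeR without KO day 3 replicate 1 (0.041) or KO day 4 replicate 1 (0.021).

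Stard4, a soluble carrier that moves cholesterol between membranes, rose with the sterol branch, from 46.8, 38.5 and 50.1 CPM in controls and 57.5, 63.2 and 72.4 CPM at KO day 3 to 62.7, 95.6 and 126 CPM at KO day 4. Stard4 is ENSMUSG00000024378, on chromosome 18 from 33199355 to 33213862. Neither KO group overlapped the controls (log2 fold change 1.06 at KO day 4, SE 0.23, edgeR adjusted p = 0.0086). On library size alone it turned to -0.86, above the median of all genes on that scale. Cyp39a1, a hydroxylase of oxysterols best known from liver, went the other way and moved furthest of the 32. Cyp39a1 is ENSMUSG00000023963, on chromosome 17 from 43667425 to 43751431. It had 265, 403 and 279 counts in controls, 53, 193 and 69 at KO day 3 and 14, 5 and 0 at KO day 4, or 10.3, 13.3 and 12.5 CPM, 4.52, 8.37 and 2.45 CPM and 1.64, 0.795 and 0 CPM. A count of 0 in KO day 4 replicate 3 allows up to 0.671 CPM (3 counts, counting error only). The groups were ordered without overlap from control to KO day 3 to KO day 4, and the log2 fold change at KO day 4 was -3.71 (SE 0.68, edgeR adjusted p = 0.0036), called in all 19 alternative settings. The sum of the stem cell markers, in CPM of nuclear counts, fell over the same groups, and the part of that shift in the fall of Cyp39a1 was not tested.

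**Figure D4:**
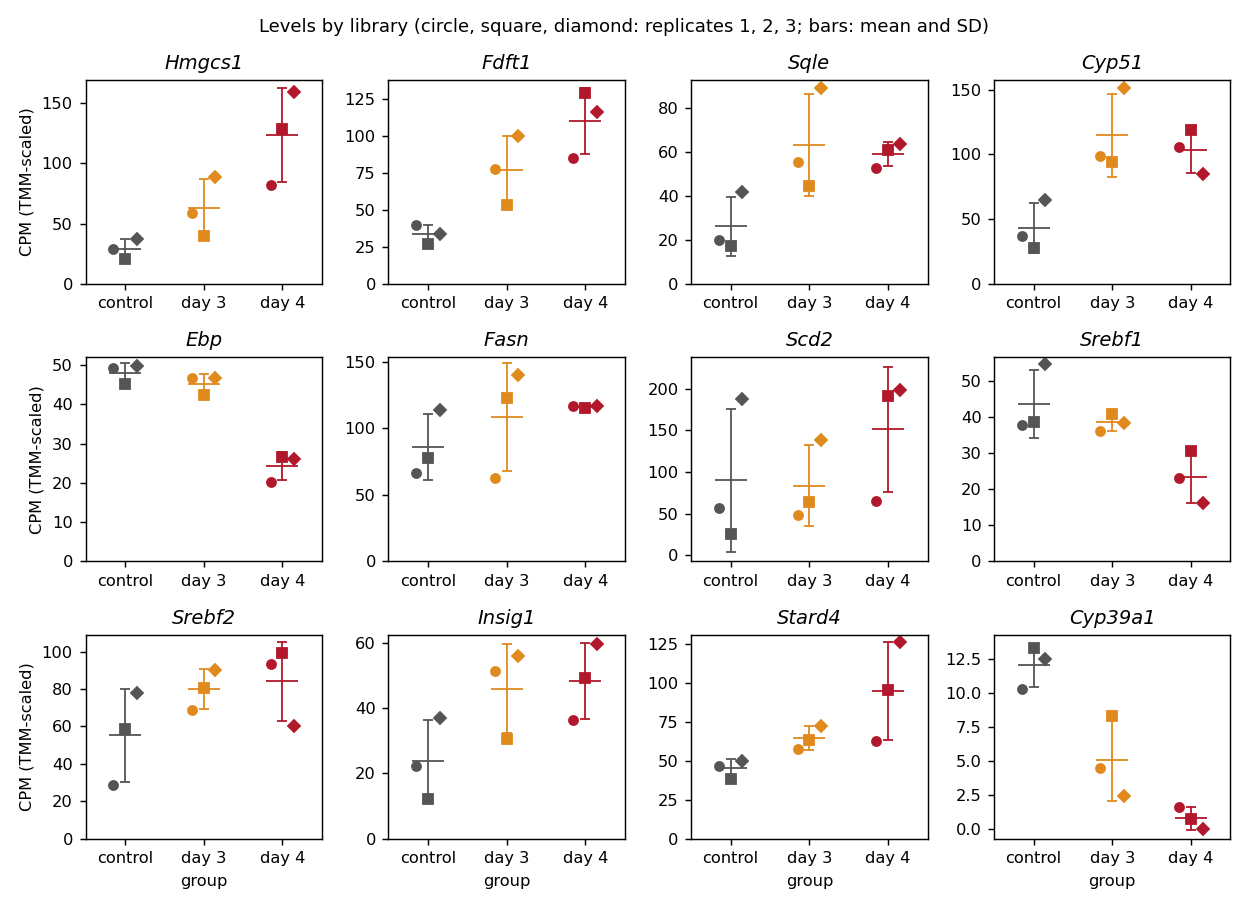
Levels of 12 genes are plotted by library in CPM (vertical axes, each including 0), with circles, squares and diamonds for replicates 1, 2 and 3 and bars for the mean and SD of each group. Hmgcs1 and Fdft1 step up from control to day 4, Sqle and Cyp51 are no higher at day 4 than at day 3, Ebp and Srebf1 drop at day 4 and Cyp39a1 at both times, and the controls of Scd2 span most of the KO range; on library size alone Hmgcs1 stays above 0 at day 4 and Fdft1, Sqle, Cyp51 and Stard4 do not.

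At KO day 3, edgeR called none of the 32 genes, against 0.142% of all genes tested called higher and 0.298% lower. An unadjusted p under 0.05 was reached by 12 genes in the higher direction and by 1, Cyp39a1, in the lower, where 7.55% and 8.29% of all genes tested did. In 11 genes all 3 KO day 3 libraries were above all controls and in 2 below, against 12.1% and 18% of all genes tested, and the median log2 fold change was 0.52 against -0.02. DESeq2 called 6 genes higher (Hmgcs1, Fdps, Fdft1, Sqle, Cyp51 and Msmo1), with 2.93% of all genes tested called higher and 3.6% lower. Limma with quality weights called 6 higher, Lss in place of Hmgcs1, and 2 lower, Cyp39a1 and Insig2, where it called 3.59% of all genes tested higher and 7.03% lower. The 5 highest log2 fold changes were those of Msmo1 (log2 fold change 1.52, SE 0.41, edgeR adjusted p = 0.11), Cyp51 (1.41, SE 0.30, adjusted p = 0.070), Elovl6 (1.31, SE 0.56, adjusted p = 0.28), Sqle (1.27, SE 0.34, adjusted p = 0.11) and Fdft1 (1.20, SE 0.25, adjusted p = 0.065). Fdft1 and Cyp51 were called without the libraries that stood apart (adjusted p = 0.047 and 0.038) and without KO day 4 replicate 3 alone (0.045 and 0.046), and Fdft1 also without KO day 3 replicate 2 (0.037). Without the libraries that stood apart, 1.39% of all genes tested were called higher and 3.34% lower.

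Within KO day 3, replicate 3 had the highest sterol branch median, 0.99 against 0.47 and 0.46 in replicates 1 and 2. The goblet, enteroendocrine, stromal and red blood cell sums were in that same order. The mast, tuft, other immune and enterocyte sums were highest in replicate 1, and the Paneth and stem cell sums in replicate 2. At KO day 4 all 10 marker lists differed from the controls without overlap, and the part of these shifts in the sterol values was not tested.

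Against KO day 3, KO day 4 had 2 of the 32 genes lower, Ebp and Cyp39a1, and none higher by edgeR, where 6.03% and 6.52% of all genes tested were called; 5 genes had an unadjusted p under 0.05 in the higher direction and 3 in the lower, where 14.7% and 15.3% of all genes tested did. DESeq2, with 11.4% of all genes tested higher and 10.1% lower, called Hmgcs1 and Mvd higher and Srebf1 lower as well, and limma with quality weights, with 7.38% of all genes tested higher and 4.95% lower, called Ebp alone. Both comparisons with the control share the same 3 control libraries, so each is given by its own values. For Hmgcs1 the log2 difference between the times was 0.97 (SE 0.32, edgeR adjusted p = 0.071) and for Mvd 1.10 (SE 0.36, adjusted p = 0.064). For Sqle, Cyp51 and Msmo1 it was -0.09 (SE 0.33), -0.15 (SE 0.30) and 0.05 (SE 0.40). The call on Cyp39a1 was not steady: its log2 difference of -2.47 (adjusted p = 0.036) kept its sign but passed in 9 of the 19 alternative settings. It missed without control replicate 1, 2 or 3 (0.055, 0.060 and 0.057), KO day 3 replicate 1 or 2 (0.055 and 0.12) and KO day 4 replicate 2 or 3 (0.097 and 0.062).

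Libraries of one group differed together across the module. Control replicate 3 was the highest control in 26 of the 32 genes, 81.3%, against 34.5% of all genes tested, and control replicate 2 was the lowest in 15 of the 19 sterol genes, against 30.0% of all. KO day 3 replicate 3 was the highest of its group in 22 of the 32, against 32.7% of all, and KO day 4 replicate 1 the lowest of its group in 15 of the 19 sterol genes, against 29.8% of all. Leaving out control replicate 1 or control replicate 2 took the number of genes higher at KO day 4 from 10 to 6 in each case, and leaving out KO day 4 replicate 1 took it to 12. Over all genes tested the share called higher went from 11.1% to 6.88% and 6.2% without those controls and to 10.2% without KO day 4 replicate 1.

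Per kilobase of exon, Ebp was the most abundant gene of the module in controls, at 20.8 CPM per kb, ahead of Scd2 (16.4), Acly (13.4), Acat2 (12.7) and Pmvk (11.5). At KO day 4 the order began with Idi1 (52.2), Mvd (32.7), Scd2 (27.7), Hmgcs1 (26.9) and Fdft1 (26.1), and Ebp was in place 16 at 10.5 CPM per kb. Given the spread of Idi1 and Scd2 between libraries, their places among these neighbours are not settled. Cyp39a1 went from place 21 (3.95) to place 32 (0.266), and Scd1 (0.166) and Acaca (0.803) were the lowest in controls.

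Genes around the module moved in both directions at KO day 4. Of 8 genes for SREBP cleavage and sterol sensing 4 fell and none rose: Erlin2 (-1.45 log2, SE 0.23, edgeR adjusted p = 0.0019) and Erlin1 (-1.26), which encode membrane proteins of the endoplasmic reticulum that restrain SREBP activation, Mbtps1 (-0.85), the site-1 protease that cleaves the SREBPs, and Pgrmc1 (-0.56), a heme-binding partner of sterol-modifying P450 enzymes. Erlin2 was at 39.6, 46 and 45.9 CPM in controls, 20.7, 26.6 and 23.6 CPM at KO day 3 and 16.9, 20.2 and 10.7 CPM at KO day 4, below the controls in all 6 KO libraries. Of 12 genes for transport, esterification and release of cholesterol 2 rose, Gramd1b (2.46), a sterol carrier at membrane contacts, and Osbp (0.71), an exchanger of oxysterols and phosphoinositide, and 3 fell, with Scp2 at -0.92 and Stard3 at -1.0. Of 8 genes of the LXR and efflux list 1 rose, Mylip (3.38), a ubiquitin ligase for lipoprotein receptors, and 3 fell, with the LXR-alpha gene Nr1h3 at -1.29, the phospholipid remodelling enzyme Lpcat3 at -1.09 and the sterol exporter Abcg5 at -2.94. Mylip was low throughout, at 0.582, 0.727 and 0.584 CPM in controls and 2.93, 5.88 and 11.4 CPM at KO day 4.

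Away from sterols, of 12 genes of the nonsterol isoprenoid branch 1 rose and 3 fell at KO day 4. The gene of the Rab geranylgeranyl transferase beta subunit, Rabggtb, rose (1.23) while its alpha subunit gene Rabggta fell (-1.21), as did Fnta (-0.85) and the prenylprotein protease gene Zmpste24 (-0.99). Zmpste24 was at 21.1, 20.8 and 23.6 CPM in controls, 9.29, 8.58 and 10.4 CPM at KO day 3 and 11.5, 10.2 and 11.2 CPM at KO day 4. It was the 1 gene of these lists called at KO day 3, where its log2 fold change was -1.21 (SE 0.20, edgeR adjusted p = 0.033). That call was lost on leaving out any 1 of the control or KO day 3 libraries, with adjusted p from 0.050 to 0.18 and the direction kept. Of 5 oxysterol and bile acid genes 2 were tested and 1, Hsd3b7, fell (-1.60). Of 19 genes for fatty acid supply, elongation and desaturation 18 were tested, 2 rose and 4 fell: Me1 (3.30), which supplies NADPH, rose, and the desaturases of polyunsaturated fatty acids Fads2 (-1.13) and Fads1 (-0.89) and the elongation reductase Tecr (-0.75) fell. Fads2 was at 234, 249.8 and 292 CPM in controls, 248, 279.8 and 279 CPM at KO day 3 and 138, 126 and 89.3 CPM at KO day 4, close to control at the first time and below it at the second. Of 8 glycerolipid genes 2 rose, the phosphatidate phosphatases Lpin2 (2.15) and Lpin1 (1.96), and 4 fell, with Agpat2 at -1.21 and Dgat1, which makes triglyceride, at -1.57. Against the 11.1% called higher and 11.5% called lower among all genes tested, the 68 tested genes of these 7 lists held 8 called higher and 22 called lower, and whether they differ from the sterol branch was not tested. Of the rises named, those of Osbp and Rabggtb turned lower on library size alone. Leaving out 1 library lost, in at least 1 fit, the KO day 4 calls of Mbtps1, Pgrmc1, Gramd1b, Osbp, Scp2 and Stard3. The same held for Nr1h3, Fnta, Rabggta, Hsd3b7, Lpin2 and Lpin1. For Rabggta the edgeR adjusted p was 0.098, 0.079 and 0.12 without control replicate 1, 2 and 3.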

How the data were processed

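RNA of sorted Lgr5-GFP+ cells was sequenced in 9 libraries. The deposited values were raw counts per Ensembl identifier in 1 table; per the submitters' processing notes reads were aligned with HISAT2 2.0.4 to GRCm38, and the counting tool, strand setting and annotation release are not given in the sources used here. Antisense and overlapping genes therefore cannot always be told apart. Columns were matched to samples by the library names in the labels.

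Genes passed edgeR's filterByExpr (minimum count 10, total 15), libraries were scaled by TMM, and the quasi-likelihood F test was run on all 9 libraries in 1 fit (R 4.3.3, edgeR 4.0.16), with Benjamini-Hochberg adjustment over 13405 genes and a threshold of 0.05. Library sizes were summed over the 13405 genes that passed the filter. CPM were taken on the TMM-scaled library size, and log2 ratios to the control mean used a pseudocount of 0.5. DESeq2 1.42.0 and limma 3.58.1 (voom with quality weights) were alternatives. The script was checked on simulated counts.

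The members, the surrounding lists, the cell type markers and the tests were chosen with earlier results of these data known. All members are named, and of each surrounding list up to 4 genes called at KO day 4, those with the smallest adjusted p.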

Additional observations from a re-analysis of the deposited data

Results flagged for a closer look

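The genes given here, from the module and the named genes of the surrounding lists, differed between the 2 times, by the edgeR test of KO day 4 against KO day 3 itself; positive log2 differences are higher at KO day 4, and both times shared the same fit. Within the module these were Ebp (-0.90) and Cyp39a1 (-2.47). Among genes for sterol sensing and transport, Erlin1 (-1.11) and Pgrmc1 (-0.67) were lower at KO day 4, and the exchanger gene Osbp (0.82) and the ubiquitin ligase gene Mylip (3.02) were higher. Lpcat3, a phospholipid remodelling enzyme, was lower (-0.75), and Rabggtb, for protein prenylation, was higher (0.85). Of the fatty acid genes, Fads2 (-1.19), Fads1 (-1.09) and Tecr (-0.91) were lower and Me1 (2.21) was higher. Of the glycerolipid genes, Dgat1 (-1.60) was lower and Lpin1 (1.86) was higher. In all, 6 of the 68 tested genes of the surrounding lists were higher and 11 lower, where 6.52% and 6.03% of all genes tested were. The 5 outside the rule for named genes were Tmem97 (-0.83), Npc2 (-0.71), Soat1 (-0.60), Hacd3 (-0.79) and Gramd1a (1.38). Among the named genes of those lists, 7 lost the call without KO day 3 replicate 2 and 6 without KO day 4 replicate 2. Lpcat3 lost it without control replicate 1, 2 or 3 (edgeR adjusted p = 0.070, 0.074 and 0.070). It also lost it without KO day 4 replicate 1, 2 or 3 (0.0525, 0.073 and 0.097). Erlin1, Pgrmc1, Osbp, Mylip, Rabggtb, Me1, Dgat1 and Lpin1 each lost the call on leaving out at least 1 KO library. None of the sterol branch genes that rose against control at KO day 4 differed between the times by this test. Mitochondrial transcripts and all 10 marker lists also differed between these times without overlap, and their part in these differences was not tested.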

How the results depend on the processing

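Calls at KO day 4 depended on composition scaling. On library size alone, which moved the median of all genes by -0.39, -1.95 and -1.54 (log2) at KO day 3, at KO day 4 and between the 2 times, no gene of the module was higher at KO day 4 and 19 were lower (2.15% and 80.3% of all genes tested), and 24 were lower than at KO day 3 (69.5% of all). The sterol branch median was then 0.27 at KO day 3, -0.76 at KO day 4 and -1.37 between the times, and that of the fatty acid branch -1.29 at KO day 4 and -1.33 between the times. Of genes called on either scale, log2 fold changes that turned lower under it at KO day 4 were those of Acat2 (-1.21), Mvk (-1.19), Pmvk (-1.51), Mvd (-0.015), Fdps (-0.46), Ggps1 (-1.74), Fdft1 (-0.17), Sqle (-0.76), Lss (-0.085), Cyp51 (-0.64), Msmo1 (-0.37), Nsdhl (-1.89), Hsd17b7 (-0.32), Sc5d (-1.18), Dhcr7 (-1.76), Acly (-1.34), Acaca (-1.47), Fasn (-1.48), Srebf2 (-1.31), Insig1 (-0.91), Insig2 (-1.89), Stard4 (-0.86), Osbp (-1.19) and Rabggtb (-0.67), and against KO day 3 those of Acat2 (-1.37), Pmvk (-1.27), Fdps (-1.21), Ggps1 (-1.16), Fdft1 (-1.03), Msmo1 (-1.52), Sc5d (-1.42), Acly (-1.25), Acaca (-1.41), Fasn (-1.41), Srebf2 (-1.42), Insig1 (-1.49), Stard4 (-1.0), Osbp (-0.71), Rabggtb (-0.68) and Zmpste24 (-1.31). Genes called on neither scale also turned lower, among them Elovl6 (-0.69), Scd1 (-0.81) and Scd2 (-1.23) at KO day 4 and Hmgcs1 (-0.59), Mvd (-0.47), Lss (-0.66), Hsd17b7 (-0.52), Scd2 (-0.71) and Insig2 (-0.67) between the times. No other setting turned a called direction.

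At KO day 3, genes called higher numbered 6 by DESeq2, with no filter on low counts or by limma with quality weights (which called 2 lower), 1 with only the 2 groups compared and 2 without the libraries that stood apart. Over all genes tested, the shares called higher in these settings were, in that order, 2.93%, 0.608%, 3.59%, 0.427% and 1.39%. Limma called 7.03% lower. Between the times, 2 were higher by DESeq2 or with no filter, where 11.4% and 3.99% of all genes tested were. By limma, with only the 2 groups compared or without the libraries that stood apart, 1 was lower, where 4.95%, 2.28% and 4.93% of all genes tested were.

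Leaving out 1 library at a time gave 0 to 2 genes higher and 0 lower at KO day 3 (branch medians 0.52 to 0.87 for sterols and 0.08 to 0.55 for fatty acids), 6 to 12 higher and 2 to 4 lower at KO day 4 (0.93 to 1.66 and 0.41 to 1.31), and 0 to 3 higher and 1 to 2 lower between the times (0.07 to 0.43 and 0.025 to 0.41). Over all genes tested these fits called 0 to 0.678% higher and 0 to 1.81% lower at KO day 3. At KO day 4 they called 6.2% to 13.8% higher and 5.43% to 13.9% lower, and between the times 2.57% to 6.61% and 2.15% to 6.49%. Of 3237 values of single genes under the alternatives, 2956 kept their side of the threshold without a turned call, 105 of them uncalled values that changed sign, 129 lost the call and 112 gained it.

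Replicate numbers did not pair the libraries (correlations of same-numbered deviations -0.0543 to 0.132). With the replicate block 13 genes were higher (Sc5d, Acly and Insig1 besides the 10) and 3 lower at KO day 4, Zmpste24 lost its call at KO day 3 (adjusted p = 0.085), no gene of the module was called at KO day 3, and 3 were higher between the times (Hmgcs1, Mvd and Hsd17b7). Over all genes tested the block gave 9.85% higher and 10.1% lower at KO day 4. It gave 0.0149% higher and 0.0522% lower at KO day 3, and 5.62% and 5.84% between the times. Depth limits Scd1 and Cyp39a1 at KO day 4 most.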

Other observations

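Ratios of counts within libraries do not depend on scaling between libraries, and those given here were chosen after their values were seen. Counts of Hmgcs1 divided by those of Fasn were 0.441, 0.261 and 0.327 in control replicates 1, 2 and 3. They were 0.944, 0.326 and 0.633 at KO day 3 and 0.698, 1.12 and 1.37 at KO day 4. KO day 4 lay above the controls in all 3 libraries, while KO day 3 replicate 2 lay inside their range. Counts of Cyp51 divided by those of Ebp were 0.754, 0.606 and 1.30 in control replicates 1, 2 and 3, 2.11, 2.21 and 3.24 at KO day 3 and 5.21, 4.49 and 3.23 at KO day 4. All 6 KO libraries lay above the controls, and the KO groups overlapped at KO day 3 replicate 3 and KO day 4 replicate 3. Counts of Srebf2 divided by those of Srebf1 were 0.764, 1.52 and 1.42 in controls, 1.89, 1.97 and 2.34 at KO day 3 and 4.02, 3.23 and 3.72 at KO day 4, so the 3 groups did not overlap although Srebf2 was not called at either time.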
